A study of Mus musculus with 12 samples.

Results

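Myosin heavy chains are the motor subunits of the conventional (class II) myosins, and 7 of their genes were followed here in mouse left ventricle: Myh6, Myh7, Myh7b, Myh9, Myh10, Myh11 and Myh14. They were chosen by name to cover muscle and nonmuscle forms, and all 7 were found by symbol among the 17471 genes listed. All 7 passed the filter on low counts. A conventional myosin is a pair of heavy chains with light chains bound to their necks. The heads pull on actin, and the tails join into filaments. In heart muscle Myh6 and Myh7 encode the alpha and beta heavy chains of the thick filament, fast and slow respectively, and the adult mouse ventricle is known for its predominance of alpha. Nonmuscle myosins build contractile filaments in most other cells, among them migrating leukocytes and fibroblasts.

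The study profiled 12 left ventricles by RNA sequencing in 4 groups of 3, from siblings aged 6 to 10 weeks. All mice carried floxed Yap alleles and all ate a diet with tamoxifen citrate from surgery until the ventricles were taken on day 4. Surgery was either permanent ligation of the left anterior descending artery, which causes a myocardial infarction (MI), or a sham operation. Cre-positive mice had a copy of the inducible recombinase MerCreMer under the endogenous periostin promoter, which is active in myofibroblasts, and Cre-negative mice had wildtype periostin. The deletion was therefore aimed at myofibroblasts within a whole-tissue sample, and the heart muscle cells, where Myh6 and Myh7 are expressed, were not its target. The labels give a replicate number and nothing on how libraries were prepared in relation to each other, so the p-values below measure the spread between these samples only.

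Total expected counts, which are estimated reads per gene, ran from 10257675 to 15176286 per library. The 10 markers of ventricular heart muscle cells fixed for this check summed to between 36885 and 93177 CPM (reads scaled to a common effective library size) in the 12 libraries, and none of them was at 0 in any library. Yap1 stood between 84.6 and 121 CPM in every library. It had 91.1 to 93.9 CPM in Cre-positive MI and 84.6 to 96.4 CPM in Cre-negative MI. In sham hearts it had 102 to 121 CPM in Cre-positive and 114 to 116 CPM in Cre-negative ones. The genotypes overlapped after either surgery, so these whole-tissue levels did not set them apart by the targeted gene. Postn, where the recombinase sits, reached 1528 to 1729 CPM in Cre-negative MI and 603 to 674 CPM in Cre-positive MI, against 62.7 to 111 and 3.76 to 11.4 CPM in the respective sham groups. Among Cre-negative hearts Y-linked genes were read in all 3 MI and in 2 sham libraries, but among Cre-positive hearts only in 1 MI and in 0 sham libraries, so sex and group were not balanced. Cre-positive sham replicate 2 stood apart. It was the highest or the lowest of the 6 sham libraries for 59.79% of the 13678 genes tested, against 19.17 to 44.2% for the other 5, and results that rest on it are given with and without it.

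Myh6 and Myh7 lie side by side on chromosome 14 of the mm10 genome (54941921 to 54968017 and 54970684 to 54994626), with 2666 bases between them. The coding sequences of 1 transcript each in the GENCODE M21 annotation were identical at 5320 of 5802 aligned bases, or 91.7%. Of all 50-base stretches of the Myh6 transcript, 23.0% also occurred in the Myh7 transcript, so a short read can fit both genes. The next most alike in this respect were Myh9 and Myh10, which shared 0.989% of the stretches of Myh9. Reads that fit both genes were divided between them by RSEM, and no library had a whole-number count for either. The same was true of Myh9, Myh10 and Myh11, so this trait is not particular to the cardiac pair. To show the scale of the difference that separates them, the least similar 60-base stretch of the 2 coding sequences is printed here, from coding base 3226 of Myh6 and 3220 of Myh7 in the GENCODE transcripts of the GRCm38 build, with the 27 differing bases in capitals.
Myh6: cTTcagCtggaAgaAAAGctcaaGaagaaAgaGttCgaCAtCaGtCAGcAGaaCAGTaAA
Myh7: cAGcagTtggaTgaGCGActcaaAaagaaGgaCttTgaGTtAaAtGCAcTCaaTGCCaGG

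The 3 cardiac and slow-type genes each carry a microRNA inside an intron, in the direction of the gene, per RefSeq annotation of GRCm38.p6. These are the so-called myomiRs, known as regulators that travel with their host genes. They were not measured in these libraries and are shown because the levels of their hosts are the subject here. Their mature sequences follow, with the seed (bases 2 to 8) in capitals. The first lies in Myh6 (chromosome 14, 54949072 to 54949093, minus strand), the second in Myh7 (chromosome 14, 54975710 to 54975731, minus strand) and the third in Myh7b (chromosome 2, 155622893 to 155622913, plus strand). The Myh6 and Myh7 microRNAs share 1 seed, and that of Myh7b differs from it in its last base.
mmu-miR-208a-3p: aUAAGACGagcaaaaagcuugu
mmu-miR-208b-3p: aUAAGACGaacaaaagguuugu
mmu-miR-499-5p: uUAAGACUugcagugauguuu

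Per transcript length, Myh6 was the most abundant of the 7 in every group. Length-scaled levels (FPKM) are the only ones compared between genes here. In Cre-negative sham hearts the mean Myh6 level was 6749.8 ± 347 FPKM (SD, n = 3), followed by Myh7 at 295 ± 206, Myh14 at 29.1 ± 4.82, Myh9 at 17.8 ± 2.77, Myh7b at 16.5 ± 1.42, Myh10 at 4.94 ± 0.869 and Myh11 at 4.04 ± 1.19. The ranges of Myh9 and Myh7b overlapped, as did those of Myh10 and Myh11, and the other neighbours in this order were apart. In Cre-negative MI hearts the order below the cardiac pair was Myh9 at 66.3 ± 2.37, Myh14 at 14.0 ± 1.40, Myh10 at 11.98 ± 0.137, Myh7b at 5.60 ± 1.24 and Myh11 at 4.19 ± 0.467 FPKM, where only Myh7b and Myh11 overlapped among neighbours. Myh9 thus took the place next to the cardiac pair that Myh14 held in sham hearts, and Myh10 stood above Myh7b. The Cre-positive groups had the same orders, with 4 differences in overlap. In Cre-positive sham Myh6 and Myh7 overlapped, through replicate 2, and Myh10 and Myh11 did not. In Cre-positive MI Myh10 and Myh7b overlapped, and Myh7b and Myh11 did not.

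**Figure D1:**
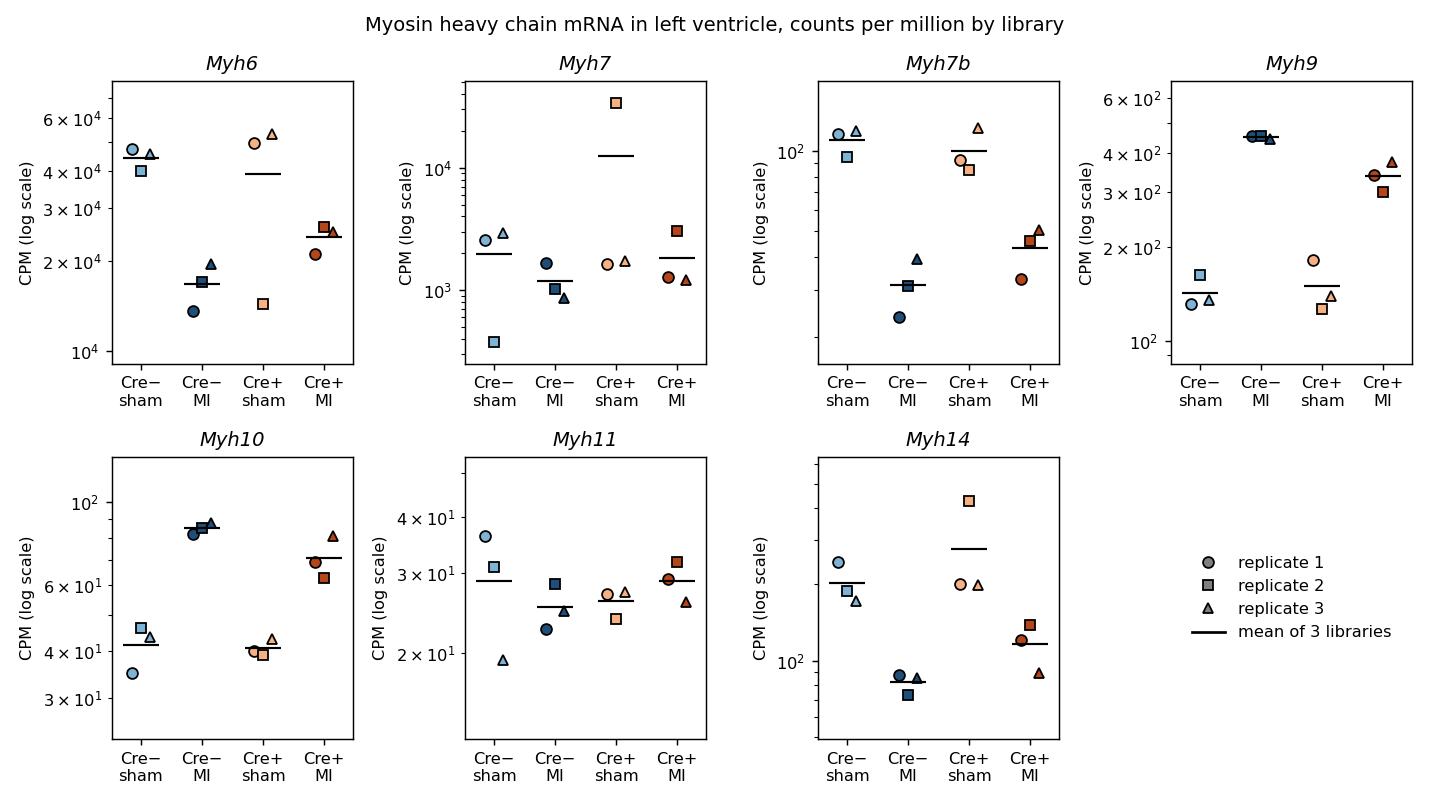
CPM of the 7 myosin heavy chain genes (log scale, a separate axis for each gene) in the 12 libraries, by group, with marker shape for the replicate number and a bar for the mean of 3 libraries. Myh9 and Myh10 stand higher in all MI libraries than in all sham libraries, Myh7b and Myh14 lower, and Cre-positive sham replicate 2 is apart for Myh6, Myh7 and Myh14.

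Myh6 fell after infarction in Cre-negative hearts. Myh6, the fast alpha heavy chain, had 47323, 39836 and 45414 CPM in the 3 Cre-negative sham libraries and 13637, 17078 and 19524 CPM in the 3 Cre-negative MI libraries. All MI libraries were below all sham libraries. Such a lack of overlap was common, at 67.8% of the 13678 genes tested in Cre-negative and 51.1% in Cre-positive hearts. It is to be read beside these shares for each member below as well. The Myh6 difference was -1.40 ± 0.37 on the log2 scale (SE of the edgeR model), a 2.64-fold lower level, with a Benjamini-Hochberg adjusted p of 0.00650. In Cre-positive hearts the sham libraries had 49614, 14336 and 53143 CPM and the MI libraries 21184, 25973 and 24988 CPM. The second sham library was below every MI library, and the other 2 sham libraries were above them all. The difference over all 12 libraries was -0.70 ± 0.36 (adjusted p = 0.135), which did not pass the test, and without Cre-positive sham replicate 2 it was -1.13 (adjusted p = 6.50e-05).

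Myh7 did not pass the test after infarction in either genotype, and it varied more between libraries than any other member. Myh7, the slow beta heavy chain that is widely read as a sign of the fetal gene programme in a stressed mouse ventricle, had 2578, 377 and 2938 CPM in Cre-negative sham and 1669, 1021 and 872 CPM in Cre-negative MI. The 377 CPM came from the second Cre-negative sham library, and the groups overlapped. The log2 difference was -0.73 ± 1.01 (adjusted p = 0.567). In Cre-positive hearts the sham libraries had 1642, 34063 and 1730 CPM and the MI libraries 1289, 3042 and 1207 CPM. A single sham library lay above every other library of the study. The difference of -2.76 ± 1.07 (adjusted p = 0.0531) rested on it and was 0.09 (adjusted p = 0.915) without it. Leaving out 1 of the other sham libraries (Cre-positive replicate 1 or 3, or Cre-negative replicate 2) gave a negative difference that passed the test, with adjusted p of 0.0208, 0.0246 and 0.0410, and so did scaling by the median of ratios (RLE, adjusted p = 0.0499) and no filter on low counts (adjusted p = 0.0466). Over the 12 libraries the highest Myh7 level was 90.4 times the lowest, while the same ratio was 1.88 to 5.84 for the other 6 genes.

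Among the 2 cardiac heavy chains the share of Myh7 showed no common direction with infarction. Myh7 made up 5.16, 0.935 and 6.06% of the summed FPKM of Myh6 and Myh7 in Cre-negative sham and 10.9, 5.63 and 4.26% in Cre-negative MI. In Cre-positive hearts the share was 3.20, 70.3 and 3.15% after sham surgery and 5.72, 10.5 and 4.598% after MI. The share was thus 10.9% or less in 11 libraries and 70.3% in Cre-positive sham replicate 2. An exact two-sided permutation test of the log2 ratio of Myh7 to Myh6, MI against sham with labels exchanged within each genotype, gave a difference of 0.07 (p = 0.955). Without that library the difference was 1.10 and the exact permutation p was 0.06.

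The sum of the 2 genes fell. It is not affected by how reads that fit both were divided, and it came to 49901, 40212 and 48352 CPM in Cre-negative sham against 15306, 18100 and 20396 CPM in Cre-negative MI. In Cre-positive hearts it was 51256, 48399 and 54873 CPM after sham surgery and 22473, 29015 and 26195 CPM after MI. Every MI library was below every sham library, and on the sum Cre-positive sham replicate 2 stood with the other sham libraries. The mean log2 difference was -1.18, a 2.27-fold lower sum after MI (exact permutation p = 0.005, the smallest that this design can give, and 0.0075 when adjusted over the 3 tests of this kind). As a share of all counts the 2 genes held 3.93 to 4.98% in sham libraries and 1.74 to 3.02% in MI libraries. In whole tissue, fewer cells of a type and less RNA per cell cannot be told apart. Of the 10 ventricular heart muscle markers 9 were lower after MI in Cre-negative and 7 in Cre-positive hearts, with a median log2 difference of -1.07 and -0.65 beside medians of 0.02 and 0.02 over all genes, and their part in the fall of the cardiac heavy chains was not tested.

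**Figure D2:**
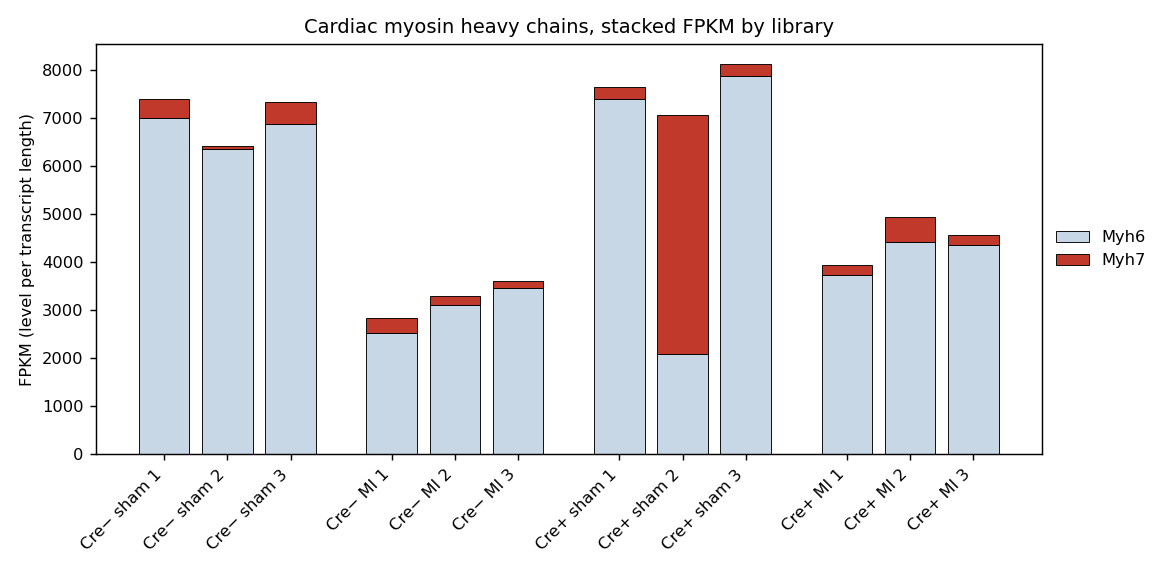
Stacked FPKM (level per transcript length) of Myh6 and Myh7 in each of the 12 libraries, where Cre− and Cre+ mark the genotype. The total is lower in the 6 MI libraries, and Myh7 holds 70.3% of it in Cre-positive sham replicate 2 against at most 10.9% elsewhere.

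The third sarcomere-type gene, Myh7b (chromosome 2, 155611243 to 155634307), encodes an ancient slow-type heavy chain and hosts mmu-miR-499-5p, printed above. It had 116, 95.2 and 119 CPM in Cre-negative sham and 23.9, 31.1 and 39.2 CPM in Cre-negative MI. In Cre-positive hearts it had 92.6, 84.9 and 122 CPM in sham and 33.3, 46.0 and 50.6 CPM after MI. No MI library reached any sham library, in either genotype. Myh7b fell by 1.81 ± 0.21 on the log2 scale in Cre-negative hearts (3.50-fold lower, adjusted p = 1.65e-05) and by 1.21 ± 0.20 in Cre-positive hearts (2.31-fold lower, adjusted p = 0.000480).

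Nonmuscle myosin moved the other way for 2 of its 3 heavy chains. Myh9 (chromosome 15, 77760585 to 77842175) encodes the heavy chain of nonmuscle myosin IIA, abundant in leukocytes and many other cells. It had 131, 162 and 135 CPM in Cre-negative sham and 453, 453 and 443 CPM in Cre-negative MI. It had 182, 127 and 140 CPM in Cre-positive sham and 339, 299.7 and 374 CPM in Cre-positive MI. Sham and MI libraries did not overlap in either genotype, as for 67.8% of all genes in Cre-negative and 51.1% in Cre-positive hearts. Cre-negative MI held the highest 3 values of the study. Myh9 rose by 1.65 ± 0.14 on the log2 scale in Cre-negative hearts (3.15-fold, adjusted p = 1.85e-06) and by 1.18 ± 0.14 in Cre-positive hearts (2.26-fold, adjusted p = 3.52e-05).

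Myh10 (chromosome 11, 68691915 to 68816626), the gene of nonmuscle myosin IIB, rose less. It had 34.9, 46.2 and 43.6 CPM in Cre-negative sham and 82.2, 85.2 and 88.1 CPM in Cre-negative MI. In Cre-positive hearts it had 40.0, 39.1 and 43.1 CPM in sham and 69.4, 62.9 and 81.0 CPM after MI. All MI libraries were above all sham libraries. The log2 rise was 1.03 ± 0.12 in Cre-negative hearts (2.05-fold, adjusted p = 1.91e-05) and 0.80 ± 0.12 in Cre-positive hearts (1.75-fold, adjusted p = 0.000202). The unequal rise was tested directly. The ratio of Myh10 to Myh9 FPKM was 1.42-fold lower after MI, a log2 difference of -0.50 (exact permutation p = 0.005, adjusted 0.0075 over 3 tests). Myh10 made up 17.4 to 23.5% of the summed FPKM of these 2 genes in sham libraries and 14.8 to 17.2% in MI libraries, ranges that do not overlap.

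Myh14 (chromosome 7, 44605803 to 44670872), the gene of nonmuscle myosin IIC, fell in both genotypes. It had 245, 188 and 173 CPM in Cre-negative sham and 87.4, 73.1 and 85.1 CPM in Cre-negative MI. It had 199.9, 427 and 198 CPM in Cre-positive sham and 121, 138 and 89.2 CPM in Cre-positive MI. MI and sham libraries did not overlap, and the 427 CPM of Cre-positive sham replicate 2 was the highest level of the study. The log2 difference was -1.30 ± 0.28 in Cre-negative hearts (2.47-fold lower, adjusted p = 0.00168) and -1.25 ± 0.27 in Cre-positive hearts (2.37-fold lower, adjusted p = 0.00285), the latter -0.82 (adjusted p = 0.00192) without that library. Of the summed FPKM of Myh9, Myh10 and Myh14, Myh14 held 51.4 to 75.2% in sham libraries and 13.7 to 30.9% in MI libraries. Myh9 held 19.2 to 40.2% and 57.6 to 73.1% of the same sum.

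**Figure D3:**
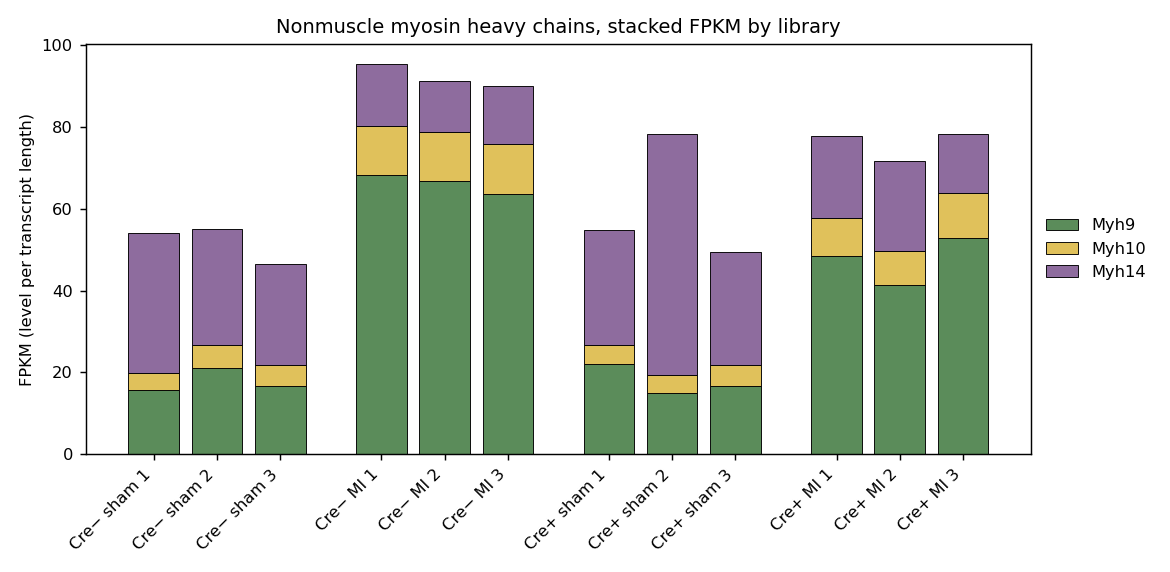
Stacked FPKM of the 3 nonmuscle heavy chain genes in each library, where Cre− and Cre+ mark the genotype. Myh14 is the largest part in the 6 sham libraries (51.4 to 75.2%) and Myh9 in the 6 MI libraries (57.6 to 73.1%).

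Beside the rise of Myh9 and Myh10 stood higher leukocyte and fibroblast markers. All 10 leukocyte markers were higher after MI in both genotypes, and their summed level went from 288 to 341 CPM in Cre-negative sham to 2004 to 2316 CPM in Cre-negative MI, and from 97.1 to 342 CPM to 1478 to 1706 CPM in Cre-positive hearts. Of 8 fibroblast markers 7 were higher in both genotypes, with sums of 1736 to 2230.45 CPM in Cre-negative sham, 14572 to 16185 CPM in Cre-negative MI, 923 to 1343 CPM in Cre-positive sham and 11383 to 12647 CPM in Cre-positive MI. No marker of either list was at 0 in any library. The part of these cells in the rise of the nonmuscle genes was not tested.

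Myh11 (chromosome 16, 14194527 to 14292188), the heavy chain of smooth muscle and a marker of vessel walls, did not pass the test. It had 36.3, 30.9 and 19.3 CPM in Cre-negative sham and 22.6, 28.4 and 24.8 CPM in Cre-negative MI. It had 27.0, 23.8 and 27.3 CPM in Cre-positive sham and 29.1, 31.8 and 25.9 CPM in Cre-positive MI. The groups overlapped in both genotypes. The log2 difference was -0.19 ± 0.19 in Cre-negative hearts (adjusted p = 0.406) and 0.15 ± 0.19 in Cre-positive hearts (adjusted p = 0.545), and without Cre-negative sham replicate 3 the first was -0.43 (adjusted p = 0.0286). Of 10 other smooth muscle genes 4 were higher and 2 lower in both genotypes. The thin filament and actin-binding genes Tagln (log2 3.32 ± 0.14 in Cre-negative hearts) and Cnn1 (4.09 ± 0.38), known also from myofibroblasts, were among those higher, and Synpo2 (-0.40 ± 0.11) and Myocd (-0.69 ± 0.21), a smooth and cardiac muscle coactivator, were the lower ones.

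In all, 2 of the 7 heavy chain genes were higher and 3 lower after infarction in Cre-negative hearts, and 2 higher and 2 lower in Cre-positive hearts. In Cre-negative hearts 54.3% of the 13678 genes tested were called, 29.9% as higher and 24.4% as lower, and in Cre-positive hearts 45.2%, 25.7% and 19.5%. The shares of the members are not far from these, so the counts themselves say little about the family. The median log2 difference of the 7 was -0.73 and -0.70, against 0.02 over all genes in each genotype. Without Cre-positive sham replicate 2 the counts were 2 higher and 3 lower in both genotypes, with 60.4% and 47.7% of all genes called. The median of the 7 was then -0.76 in Cre-negative and 0.05 in Cre-positive hearts, so the Cre-positive median of -0.70 rested on that library. In the authors' deposited tables the same 5 genes had adjusted p-values under 0.05 in Cre-negative hearts (Myh6 at 6.26e-24) and the same 4 in Cre-positive hearts, where Myh6 had an adjusted p of 0.169 and Myh7 of 0.105. The authors' own mark of up or down is a separate entry, and it was not given to Myh10 in Cre-positive hearts.

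**Figure D4:**
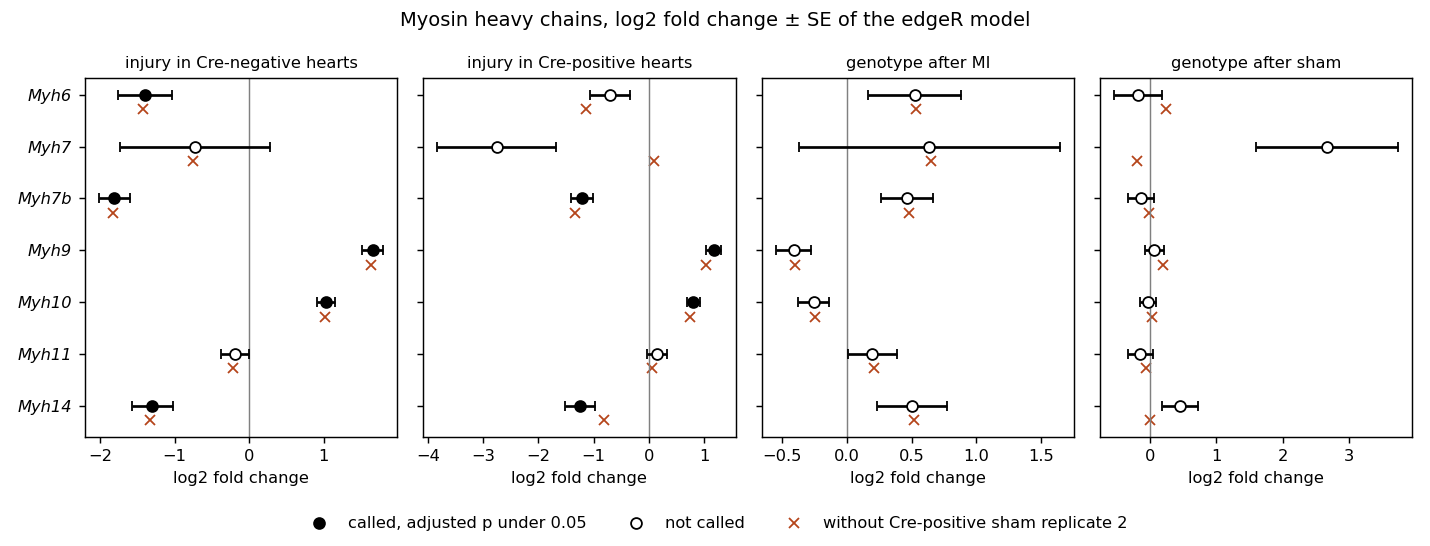
Log2 fold changes with the standard error of the edgeR model for the 7 genes in 4 comparisons (each with its own scale), filled where the adjusted p is under 0.05, and crosses for the fit without Cre-positive sham replicate 2. The crosses depart from the circles for Myh7, Myh6 and Myh14 in the comparisons that use the Cre-positive sham group, where Myh7 goes from -2.76 to 0.09 after injury.

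No member passed the test of genotype. After MI 0 of 7 were called by edgeR, beside 0% of all genes, and 3 of the 7 had an unadjusted p under 0.05, as did 12.6% of all genes. The CPM of the 3 Cre-positive and 3 Cre-negative MI libraries did not overlap for 4 members and for 27.2% of all genes tested, with 0% of genes called. Myh6 was higher in all 3 Cre-positive MI libraries (21184 to 25973 CPM) than in all 3 Cre-negative ones (13637 to 19524 CPM), with a log2 difference of 0.52 ± 0.36 (adjusted p = 0.591). Myh9 was lower in all 3 (log2 -0.41 ± 0.14, adjusted p = 0.286), as was Myh10 (-0.26 ± 0.12, adjusted p = 0.391), and Myh14 was higher in all 3 (0.50 ± 0.27, adjusted p = 0.484). By limma voom with a weight for each library, 2 members passed, Myh9 (-0.45, adjusted p = 0.0178) and Myh14 (0.59, adjusted p = 0.0420), beside 1327 of all 13678 genes tested. By DESeq2 fitted to all 12 libraries 0 members passed, beside 167 of 17439 genes with a p-value. The authors' deposited table for this comparison gives adjusted p-values of 0.00332 for Myh6, 0.00366 for Myh9 and 0.0216 for Myh14, with log2 values of 0.54, -0.40 and 0.52. It does not mark Myh6, Myh9 or Myh14 as up or down. Heart muscle markers summed to 50969.7 to 58677 CPM in Cre-positive MI and 36885 to 49885 CPM in Cre-negative MI, and leukocyte markers to 1478 to 1706 and 2004 to 2316 CPM, also without overlap. Whether the members' differences follow these was not tested.

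After sham surgery 0 of 7 members were called, beside 0.0512% of all genes, and 1 had an unadjusted p under 0.05 by edgeR, as did 8.22% of all genes. By DESeq2 and by limma voom 0 were called. That 1 was Myh7, with a log2 difference of 2.67 ± 1.07 (adjusted p = 0.587) that was -0.20 (adjusted p = 0.928) without Cre-positive sham replicate 2. Myh6 went from -0.18 ± 0.36 to 0.24 (adjusted p = 0.607) when the same library was left out. The remaining 5 genes lay between -0.15 (Myh11) and 0.45 (Myh14), with adjusted p-values of 0.651 to 0.955. Whether injury acted differently in the 2 genotypes was tested as an interaction, which called 0 of 7 members, beside 0% of all genes. By edgeR, DESeq2 and limma voom alike, 1 member had an unadjusted p under 0.05 and 0 were called. The share of all genes with an unadjusted p under 0.05 was 8.16% by edgeR, 6.58% by DESeq2 and 11.3% by limma voom. The edgeR log2 values ran from -2.03 ± 1.43 for Myh7 (adjusted p = 0.722) to 0.70 ± 0.51 for Myh6 (adjusted p = 0.726). Without Cre-positive sham replicate 2 the log2 value of Myh7 was 0.85, so its sign rested on that library. For Myh9 the interaction was -0.48 ± 0.20 (adjusted p = 0.597), so its smaller rise in Cre-positive hearts was not shown to differ.

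In Cre-positive sham replicate 2 the order of the 2 cardiac heavy chains was reversed. Myh7 was the 7th most abundant of all genes by FPKM there, at 4964 FPKM and an expected count of 371733, and Myh6 the 21st, at 2094 FPKM. In the other 11 libraries Myh6 ranked between 5th and 13th and Myh7 between 149th and 1128th. Against the median of the other 5 sham libraries Myh7 was 19.7 times as high, Myh14 2.15 times as high and Myh6 3.30-fold lower. Myh7b lay below the range of the other 5 sham libraries (84.9 against 92.6 to 122 CPM), and Myh9, Myh10 and Myh11 were at 127, 39.1 and 23.8 CPM. Of the 7 members 2 were at the top and 3 at the bottom of the 6 sham libraries, to be read beside the 59.79% of all genes at an extreme in that library.

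Other slow-type and fetal sarcomere genes did not move as one with Myh7 in that library. Ankrd1, a stress-responsive cardiac gene, stood at 4019.7 CPM, while the remaining sham libraries had 375 to 1374 CPM. Slow troponin I (Tnni1) had 2.11 CPM against 0.399 to 1.08 CPM, and the Z-disc gene Myoz2 1591 against 1220 to 1406 CPM. Slow troponin T (Tnnt1) was below the others, at 8.34 against 13.2 to 18.4 CPM. Lower as well were the calcium pump gene Atp2a2, at 11052 against 17304 to 22375 CPM, and the calsequestrin gene Casq2, at 721 against 1006 to 1177 CPM. Acta1, the skeletal actin gene of the fetal programme, was within the range of the others at 46.9 CPM, as were Tpm3 and Myl6b. Of the 9 genes of this list that were tested, 3 were the highest and 3 the lowest of the 6 sham libraries. This is 66.67% beside 59.79% of all genes, so the list was extreme about as often as genes in general.

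Thyroid hormone is the textbook switch between these 2 genes, raising Myh6 and lowering Myh7 through receptors encoded by Thra and Thrb. In Cre-positive sham replicate 2, Thra was at 185 CPM, above the 109 to 131 CPM of the remaining sham libraries, and Thrb was within their range at 27.7 CPM. Hr, a corepressor gene known to respond to the hormone, had 10.1 CPM against 23.1 to 34.3 CPM, while Klf9, another responsive gene, was within range at 179 CPM. The hormone transporter gene Slc16a10 was below the others, at 29.3 against 33.7 to 41.8 CPM. The corepressor gene Ncor1 was above them at 233.5 against 151 to 198 CPM. Of the 12 thyroid genes tested 3 were the highest and 5 the lowest of the 6 sham libraries, 66.67% beside 59.79% of all genes, so the list was extreme about as often as genes in general.

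**Figure D5:**
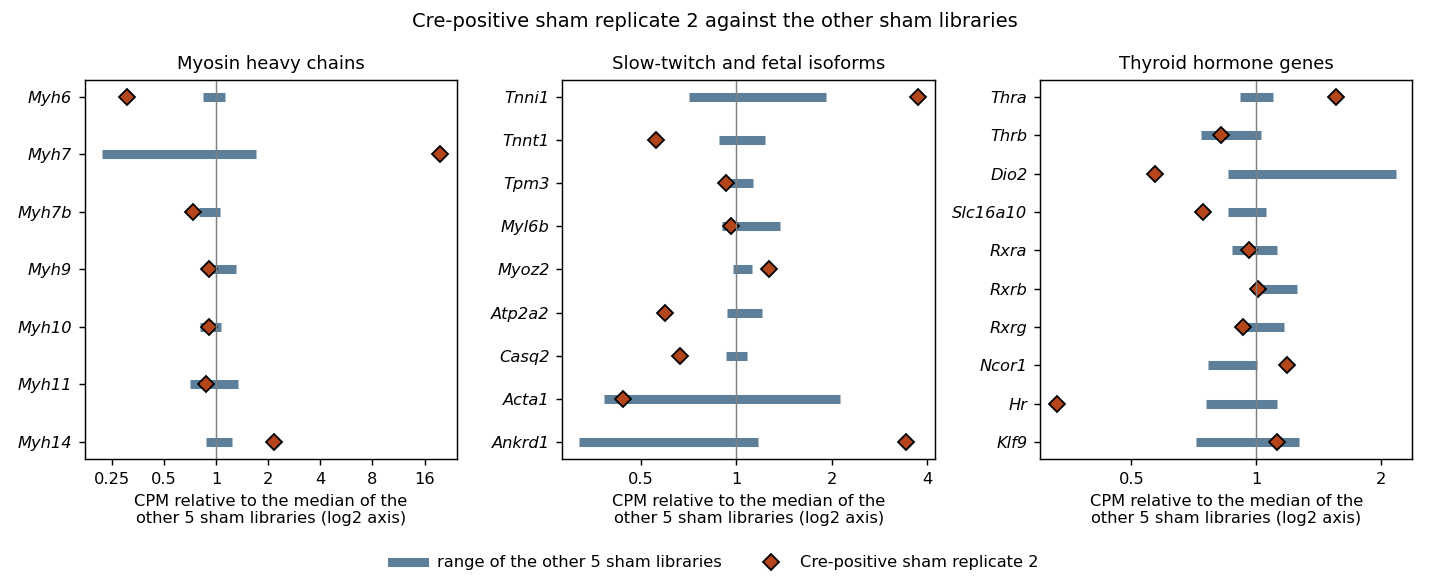
CPM in Cre-positive sham replicate 2 (diamonds) and the range of the other 5 sham libraries (bars), each relative to the median of those 5, on a log2 axis. The panels hold the 7 myosin heavy chains, the slow-twitch and fetal isoforms, and the thyroid hormone genes reported here whose median there was at least 0.5 CPM. Myh7 lies furthest out, at 19.7 times the median, and Hr and Myh6 lie 3.02-fold and 3.30-fold below it.

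Markers of heart muscle and of other tissues and cells were checked for the same library. There 30.05% of all genes were the highest and 29.74% the lowest of the 6 sham libraries, shares to be read beside each list. The fast skeletal muscle genes tested were the highest in 1 and the lowest in 3 of 8 cases, and Ckm had 1512 CPM against 2493 to 3418 CPM. The adult and developmental skeletal heavy chain genes Myh1, Myh2, Myh3, Myh4, Myh8, Myh13 and Myh15 were at 0.549 CPM or less in all 12 libraries. Of 7 atrial markers tested 6 were the highest of the sham libraries. The sum of all 8 atrial markers listed reached 1495 CPM at most in Cre-positive sham against 612 to 704 CPM in Cre-negative sham. Most of that highest sum was Nppa, at 1231 CPM in Cre-positive sham replicate 2. Of the 10 ventricular heart muscle markers 7 were the lowest there, among them the cardiac actin gene Actc1 at 5431 against 10782 to 17357 CPM and the myoglobin gene Mb at 9200.42 against 14885 to 17395 CPM, and 1 was the highest. Of 8 fibroblast markers 5 were the lowest and 1 the highest. The collagen gene Col3a1 was 18.2-fold below the median of the other 5 sham libraries, at 21.7 against 150.3 to 555 CPM. All 10 leukocyte markers were the lowest there. The part of any of these in the Myh6 and Myh7 levels was not tested. Myh7 was also low, at 377 CPM, in the single Cre-negative sham library without Y-linked reads, against 2578 and 2938 CPM in the pair with them, and all 3 Cre-positive sham libraries lacked them, at 1642 to 34063 CPM. In Cre-positive MI the 1 library with Y-linked reads had 1289 CPM and the other 2 had 1207 and 3042 CPM.

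Of all genes tested, 29.9% were called higher and 24.4% lower in Cre-negative hearts, and 25.7% and 19.5% in Cre-positive hearts. Without Cre-positive sham replicate 2, 60.4% and 47.7% were called in either direction. The counts of every list described here are to be read beside these shares. Of 12 light chain genes 10 were tested, and 4 were higher and 2 lower in each genotype. Without Cre-positive sham replicate 2 the counts in Cre-positive hearts were 6 and 2. The nonmuscle and smooth muscle light chain genes Myl6 (log2 1.91 ± 0.12 in Cre-negative and 1.57 ± 0.12 in Cre-positive hearts), Myl12b (0.87 ± 0.11 and 0.77 ± 0.11) and Myl9 (1.96 ± 0.25 and 2.01 ± 0.25) rose, as did the fast skeletal form Myl1 (0.92 ± 0.26 and 1.66 ± 0.27). Myl12a, another nonmuscle light chain gene, did not pass the test, at -0.03 ± 0.15 (adjusted p = 0.893) and -0.29 ± 0.15 (adjusted p = 0.137). The ventricular light chain genes Myl2 (-1.32 ± 0.17 and -0.86 ± 0.16) and Myl3 (-1.10 ± 0.16 and -0.76 ± 0.16) fell. The median over the list was -0.12 and 0.65.

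Of 15 thick filament partners and myosin chaperones tested, 2 were higher and 11 lower in Cre-negative hearts, and 2 and 8 in Cre-positive hearts, with medians of -0.84 and -0.49. Trim63, a ubiquitin ligase of the thick filament, fell by 1.21 ± 0.12 and 0.64 ± 0.12, and the myosin chaperone Unc45b by 0.84 ± 0.10 and 0.62 ± 0.10. The giant sarcomere gene Ttn (-1.04 ± 0.17 and -0.60 ± 0.16) fell too. Hsp90aa1, a general chaperone, was among the 2 that rose (1.12 ± 0.25 and 0.78 ± 0.25).

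Of 18 unconventional myosins tested, which carry cargo or bind membranes rather than form filaments, 10 were higher and 5 lower in Cre-negative hearts and 8 and 4 in Cre-positive hearts. Myo1f (3.30 ± 0.33 and 3.07 ± 0.33) and Myo1g (2.79 ± 0.32 and 2.65 ± 0.33), both known from leukocytes, and Myo5a (2.06 ± 0.18 and 1.98 ± 0.18) rose, while the muscle gene Myo18b fell by 0.93 ± 0.12 and 0.53 ± 0.12.

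Of 16 transcription factors and cofactors known to regulate the cardiac heavy chain genes, 0 were higher and 8 lower in each genotype, with medians of -0.28 and -0.39. Of all genes tested 54.3% and 45.2% were called, 24.4% and 19.5% as lower. Without Cre-positive sham replicate 2 the counts in Cre-positive hearts were 1 higher and 9 lower. The higher one, named after its values were seen, was Purb, which went from 0.08 (adjusted p = 0.669) to 0.27 (adjusted p = 0.0259). Sox6 (-0.94 ± 0.15 and -0.56 ± 0.15), Tbx5 (-0.93 ± 0.17 and -0.68 ± 0.16) and Mef2d (-0.56 ± 0.10 and -0.59 ± 0.10) were among those lower in both. Of 12 thyroid hormone genes 3 were higher and 7 lower in Cre-negative hearts, and 3 and 5 in Cre-positive hearts. The receptor partner Rxrg fell by 1.23 ± 0.11 and 1.08 ± 0.11. Thrb fell by 1.10 ± 0.13 in Cre-negative hearts and was at -0.32 ± 0.13 in Cre-positive hearts (adjusted p = 0.0589).

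Of the 9 slow-twitch and fetal isoforms tested 2 were higher and 3 lower in each genotype, and 4 and 4 in Cre-positive hearts without Cre-positive sham replicate 2. Tpm3, a slow tropomyosin gene, rose by 1.90 ± 0.11 and 1.63 ± 0.11, and Acta1 by 2.21 ± 0.51 and 2.78 ± 0.53. Atp2a2 fell by 1.33 ± 0.24 and 0.78 ± 0.24, and Myoz2 by 1.08 ± 0.12 and 0.82 ± 0.12. Of 8 fast skeletal markers 4 were higher and 1 lower in each genotype. The lower one was Ckm (-1.31 ± 0.25 and -0.96 ± 0.25), the muscle creatine kinase gene.

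The remaining marker lists are given by their counts. Of 7 atrial markers 2 were higher and 2 lower in each genotype, where Nppa, the natriuretic peptide gene induced in stressed ventricle, rose by 2.55 ± 0.36 and 1.93 ± 0.36. Without Cre-positive sham replicate 2, 4 atrial markers were higher in Cre-positive hearts. The added pair, named after their values were seen, were the atrial light chain genes Myl4, which went from 0.70 (adjusted p = 0.566) to 2.70 (adjusted p = 0.0268), and Myl7, which went from 0.59 (adjusted p = 0.703) to 3.34 (adjusted p = 0.0434). Of 6 pericyte markers 3 were higher and 3 lower in Cre-negative and 2 and 2 in Cre-positive hearts, or 1 and 2 without that library. Of 8 endothelial markers 1 was higher in Cre-negative hearts and 1 lower in Cre-positive hearts, and without that library 2 were higher and 1 lower in Cre-negative and 2 lower in Cre-positive hearts. Of 7 nerve and Schwann cell markers 1 was higher in each genotype, and of 4 epithelial markers tested 4 were higher in each.

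The deiodinase genes were higher after infarction. Dio2, whose enzyme makes the active hormone, had 0.941, 2.10 and 1.77 CPM in Cre-negative sham and 4.35, 9.12 and 7.74 CPM in Cre-negative MI. In Cre-positive hearts it had 0.965, 0.550 and 0.825 CPM in sham and 6.30, 5.30 and 3.78 CPM after MI. No MI library reached into the sham range, and Dio2 rose by 2.14 ± 0.35 (adjusted p = 0.000282) and 2.69 ± 0.39 (adjusted p = 0.000169) on the log2 scale. Dio3, whose enzyme inactivates the hormone, had 0 reads over the 3 Cre-negative sham libraries and 66 over the 3 Cre-negative MI libraries. This is 14.0-fold higher against an assumed floor of 3 reads over the group, and the lower 95% counting limit of the ratio was 11.1. In Cre-positive hearts 2 reads in sham stood against 28 after MI, a ratio of 10.5 with a 95% counting interval of 2.65 to 91.1.

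Promoter sequence was searched for the MCAT element, which binds TEAD factors, the DNA-binding partners of Yap. The element was searched as CATTCC on both strands, from 250 bases before to 50 after the start site, in RefSeq promoters of GRCm38.p6. It occurred in 14.7% of 32851 promoters of all genes. Among the members it was found in the promoters of Myh6, Myh10 and, for 1 of 2 start sites, Myh7, and not in those of Myh7b, Myh9 and Myh14. Myh11 was not searched. The Myh6 and Myh7 matches are shown in the 30 bases around them, on the strand of the gene (minus), with the element in capitals. Both lie at nearly the same distance from a start site, for Myh7 only when the upstream of its 2 start sites is taken. The stretch searched around the other Myh7 start site held no match. The Myh6 match starts 206 bases upstream (chromosome 14, window 54966796 to 54966825). The Myh7 match starts 201 bases upstream of that upstream start site (window 54994810 to 54994839). A match is a description of these letters only. The TEAD gene Tead1 was lower after infarction in both genotypes (-0.48 ± 0.11 and -0.38 ± 0.11).
Myh6 promoter: ctttggggaggaGGAATGtgcccaaggact
Myh7 promoter: ctagtgagccgtGGAATGttagagatattt

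The genes with the pattern most like each member were taken as those with the smallest mean absolute difference of centred log2 CPM among 12026 candidates over the 12 libraries, a description without a test. For Myh6 these were Gpt2 (0.11), Pdp2 (0.12), Fndc5 (0.13) and Gpt (0.14), and over the 11 libraries without Cre-positive sham replicate 2 Myl2 (0.06), Tnni3 (0.07) and Atp2a2 (0.08) came first. Leaving out 1 library thus replaced the genes nearest to Myh6, apart from Fndc5. For Myh7 the nearest gene over 12 libraries, Hsd11b1, was at 0.54, while the nearest gene of each other member was at 0.07 to 0.12, and over 11 libraries the nearest was Smim4 at 0.41. Myh14 was nearest to Acacb (0.08) and Ech1 (0.09). Myh9 was nearest to Rps6ka1 (0.07) and Cnn2 (0.07), Myh10 to Mtpn (0.08), Myh7b to Nr3c2 (0.11) and Myh11 to Cpq (0.12).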

How the data were processed

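The authors deposited RSEM expected counts and FPKM per gene for each library, per the file headers. The submitters' processing notes name Bowtie2 2.2.5, RSEM 1.2.12 and the mm10 build. Deposited comparison tables of the authors hold log2 fold changes and adjusted p-values. The deposited transcript lengths were not used in any test.

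Expected counts were rounded and genes filtered with filterByExpr (minimum count 10), which left 13678. In R 4.3.3 an edgeR 4.0.16 quasi-likelihood model with TMM scaling and a coefficient for each of the 4 groups was fitted over the 12 libraries together. Calls used an adjusted p (Benjamini-Hochberg, over all genes tested) under 0.05. CPM uses TMM effective library sizes. FPKM is scaled by length and was used between genes. Ratios and sums of members were tested by exact permutation within genotype over 400 relabelings. Single genes have errors from the model, means have SD over 3 libraries. Counting intervals and floors cover counting error only. Alternatives were RLE, DESeq2 1.42.0, limma 3.58.1 voom with quality weights, other filters, covariates and left-out libraries.

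The members, lists and tests were chosen with earlier results of these data known. All members were described in each comparison. Of each list, up to 4 genes with the smallest p and up to 2 called against the list were named, and in Cre-positive sham replicate 2 any gene of the slow-twitch, fast skeletal and thyroid lists. The lists of myosin partners and regulators and the 9 marker lists share some genes. A few genes and 1 list are not reported here. On simulated counts with 100 genes changed at each fold, the model recovered, at 1.5-fold, 46 in the Cre-negative injury comparison (over 13500 genes), 33 in the Cre-positive one (13513), 44 for genotype after MI (13507) and 32 for genotype after sham (13515), and 100 at 4-fold in each. Of its calls there 4.58, 8.90, 6.49 and 4.35% were false. In the measured counts Myh7 was 6.76-fold lower by edgeR after injury in Cre-positive hearts and was not called (adjusted p = 0.0531). Nor was it called for genotype after sham, where it was 6.35-fold higher in Cre-positive hearts (adjusted p = 0.587). Whether the recovery at 4-fold holds for a gene that varies between libraries as Myh7 does was not tested.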

Additional observations from a re-analysis of the deposited data

How the results depend on the processing

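Over the refits of the 7 genes, no call was lost and no called value changed sign in any comparison. Calls were gained in 1 of 139 refits of injury in Cre-negative hearts (Myh11 without Cre-negative sham replicate 3), 7 of 139 in Cre-positive hearts (2 for Myh6, 5 for Myh7) and 2 of 139 for genotype after MI (Myh9 and Myh14 by limma voom with quality weights). The Cre-positive calls of Myh6 came without Cre-positive sham replicate 2 (-1.13) and by limma voom (-0.96, adjusted p = 0.00319). Those of Myh7 are given with its values. The count of genes called for genotype after MI was 0, against 167 by DESeq2, 1327 by limma voom, 1 with only these 2 groups fitted and 0 to 3 with 1 library left out. For genotype after sham it was 7, against 36 by DESeq2, 3 by limma voom, 0 with only these groups fitted and 3 to 8 with 1 library left out. The interaction called 0 genes, against 2 without the filter, 34 by DESeq2 and 0 to 1 with 1 library left out. The cause of these differences was not tested. The log2 ratio of Myh7 to Myh6 moved between -0.45 and 1.10 with 1 library left out. With the replicate number as a block (replicate block) the injury counts were 7370 and 6150, against 7424 and 6179, and no call of a member changed. Deviations of same-numbered libraries had a median correlation of 0.02, with 4 of 18 pairs over 0.1, so the numbers were not taken to pair the libraries. Leaving out Cre-positive sham replicate 2 was an alternative chosen after seeing the data. It raised the calls of slow-twitch and fetal isoforms in Cre-positive hearts to 8 of 9, as 4 higher and 4 lower. Of all genes 47.7% were called in that refit. Calls of several other lists rose too, such as light chains (6 higher and 2 lower of 10), and those of the thyroid hormone and pericyte lists fell. With 3 libraries a group, small differences cannot be told from 0.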
